A study of Mus musculus with 14 samples.

Results

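The last of the weekly steps in a pubertal time course of the mouse mammary gland was described, 7wk against 6wk, on 6 of the 14 arrays of the series. Both groups were whole inguinal glands (number 4) of untreated female CD1 mice, an outbred strain, taken at 7 weeks of age (arrays 7wk A, B and C) and at 6 weeks (6wk A, B and C), with lymph nodes dissected away and no genetic change. Each array carried biotin-labelled RNA pooled from at least 3 mice, so an SD or a p-value here measures the spread between pools and not between animals. The other 8 arrays, 3 at 3wk, 3 at 4wk and 2 at 5wk, entered the fit to share 1 estimate of the spread, and were used to see how a probe set behaved outside this comparison. The 6 arrays were taken by their titles, and all 18480 non-control probe sets that passed a filter on low levels were tested, of 22690 on the array. Of these, 16898 name 1 gene, which gave 10672 genes, 4019 of them with at least 2 probe sets.

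At these ages the mouse gland is a tree of epithelial ducts, luminal cells lined by contractile myoepithelial cells, that grows through a fat pad under ovarian hormones. Towards the end of puberty the ducts reach the edge of the fat pad, proliferation at their tips slows, and each oestrous cycle adds side branches and small alveolar buds in which milk genes can be read at low levels. Fat cells, fibroblasts, vessels and immune cells make up much of the tissue. In whole glands, fewer cells of a type and less RNA per cell cannot be told apart.

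The arrays also carry control probe sets placed at the 5' end, the middle and the 3' end of a few transcripts. Labelling starts from the poly(A) tail at the 3' end, so the 5' to 3' ratio of these controls is a standard reading of how complete the RNA and its copies were. Every value below is a ratio: each probe set was divided by its own median over the 14 arrays, so ages can be compared within a probe set but levels cannot be compared between genes. Differences are log2 values, 7wk minus 6wk, each given with its standard error from the model (SE) over 3 arrays at each age. A probe set or gene is called where the adjusted p of limma lies under 0.05, and "no overlap" means that all 3 arrays of one age lie above all 3 of the other.

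The 5' signals of the controls were far higher at 7wk than at 6wk. For pyruvate carboxylase, an enzyme with a long transcript, the 5' control had ratios of 1.77, 1.79 and 2.17 on the arrays 7wk A to C, against 0.109, 0.167 and 0.207 on the arrays 6wk A to C. The gap narrowed step by step towards the 3' end. The mean ratios were 1.91 ± 0.227 (SD, n = 3) at 7wk and 0.161 ± 0.0493 at 6wk for the 5' control, and 1.54 ± 0.115 and 0.261 ± 0.182 for the first of the middle controls. For the second middle control they were 1.32 ± 0.258 at 7wk and 0.367 ± 0.158 at 6wk, and for the 3' control 1.09 ± 0.156 at 7wk and 0.809 ± 0.121 at 6wk. For actin, with a shorter transcript, the log2 ratio of 5' to 3' averaged 0.11 ± 0.06 at 7wk and −0.44 ± 0.35 at 6wk. The mean of the actin and pyruvate carboxylase log2 ratios, called the control index from here on, was 0.461, 0.522 and 0.413 on the 7wk arrays and −1.62, −1.65 and −0.95 on the 6wk arrays. That difference was 1.87 on the log2 scale (exact permutation test, two-sided, p = 0.1, the smallest that 3 arrays against 3 allow), with no overlap. 6wk C was the least low of the 6wk arrays. The Gapdh ratio had the same direction, 0.14 ± 0.03 at 7wk against −0.23 ± 0.29 at 6wk, while the transferrin receptor ratio scattered (exact p = 0.4). The hybridisation spikes, RNAs added to the labelled sample, ran the other way, with mean log2 ratios of −1.86, −0.79 and −0.97 on the 7wk arrays and −0.58, 0.14 and −0.01 on the 6wk arrays.

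**Figure D1:**
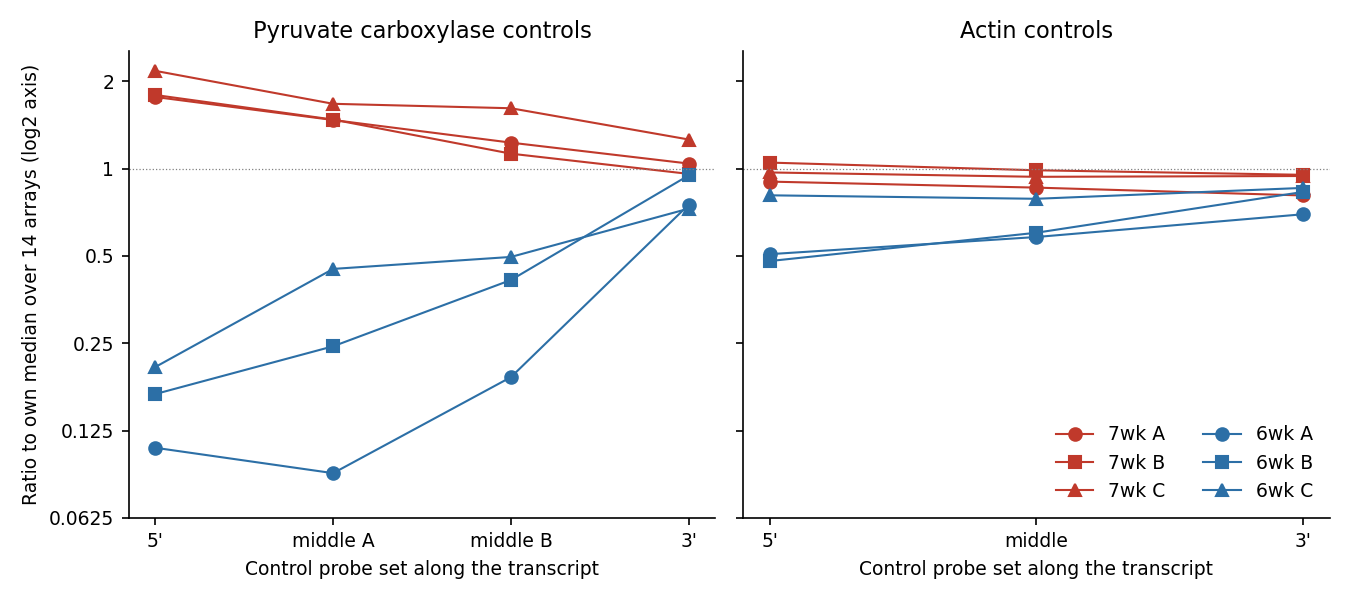
Ratios (log2 axis) of the control probe sets from the 5' to the 3' end of pyruvate carboxylase (left) and actin (right), 1 line per array, 7wk in red and 6wk in blue. The 7wk lines stay near or above 1 along the transcript, and the 6wk lines of pyruvate carboxylase climb from 0.109, 0.167 and 0.207 at the 5' end to 0.751, 0.948 and 0.728 at the 3' end.

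Of the 18480 probe sets, 177 (0.958%) were called between the ages, 153 higher (0.828%) and 24 lower (0.13%) at 7wk, and 2587 (14.0%) had an unadjusted p under 0.05. All 177 showed no overlap, beside 10.3% of all probe sets higher and 10.5% lower with no overlap. Averaged over probe sets, 38 of 10672 genes (0.356%) were called, 31 higher (0.29%) and 7 lower (0.0656%). The count of 177 became 273 when 6wk C was left out and 30 when 6wk A and B, both with an index under −1.6, were left out together. Leaving out 7wk A, 7wk B or 7wk C gave 51, 44 or 62 probe sets. With the control index as a covariate 0 were called, but age and index nearly coincide over these 6 arrays, so that fit leaves little of the age difference to estimate. Of the called probe sets described below, 7 kept the call whichever of the 14 arrays was left out: Kcnk3 1425342_a_at, Bcl2l1 1426191_a_at, Ywhag 1420816_at, Tpcn1 1451772_at, Scd2 1415824_at, Acaca and Cd28 1437025_at. The others lost it without at least 1 array of 7wk or 6wk, among them Krt15 without any one of 7wk A, 7wk B and the 3 arrays of 6wk, Nepn without 7wk A, 7wk B, 6wk A or 6wk B, and Car4 and Ehd3 without any one of the 6. Bcl2l1 1426191_a_at and Cd28 1437025_at passed the filter on low levels through 7wk arrays, where they were high, so their calls are not independent of that filter. In simulated data of this design the fit called 44% of probe sets changed by 1 on the log2 scale and 86% of those changed by 2.

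Each probe set was then set against the control index over all 14 arrays. A Pearson r of at least 0.7 was taken as sharing the 6wk dip of the 5' controls and an r of at most −0.7 as mirroring it; the probe sets nearest the limits had r of 0.7006 inside and 0.6997 outside, and −0.7002 inside and −0.6998 outside. This r uses the 6 arrays of the comparison, so the split is a description. By it, 498 probe sets (2.69% of those tested) shared the dip and held 131 of the 153 called higher (85.6%). Another 355 mirrored it and held 13 of the 24 called lower. The remaining 17627 held 22 called higher and 11 called lower. Over the 8 arrays of 3wk, 4wk and 5wk, which take no part in the comparison, r was at least 0.7 for 56 of the 153 called higher (36.6%), beside 5.35% of all probe sets tested. The median r over those 8 arrays was 0.597 among the probe sets called higher and −0.031 among all. With only 8 arrays, whose index itself moves with age, this stays a description. Counted per probe set, the gene of those that shared the dip spanned a median of 38.2 kb in the genome, against 23.9 kb for all tested. This span includes introns and is not transcript length, and the part of transcript length was not tested.

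**Figure D2:**
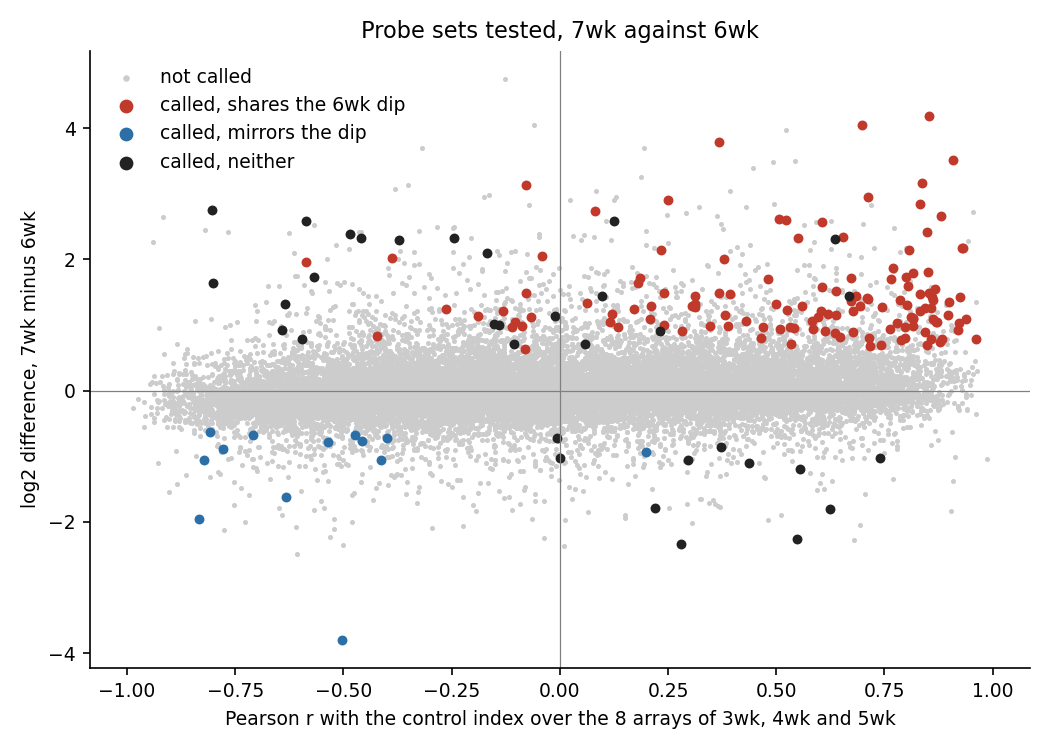
Log2 difference, 7wk minus 6wk, of each of the 18480 probe sets against its Pearson r with the control index over the 8 arrays of 3wk, 4wk and 5wk. Grey points were not called; red, blue and black points were called and shared the dip, mirrored it or did neither over 14 arrays. The red points, 131 in all, crowd towards the right, with a median r of 0.597 for all called higher.

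Several of the largest rises came from 1 probe set of a gene whose other probe sets did not follow. The 358 probe sets that shared the dip and had sisters, other probe sets of the same gene, had a median difference of 0.92. Their 596 sisters that did not share it had a median of 0.08 and a median r of 0.098, and 4 of the 596 were called. Of all probe sets tested, 0.958% were called. The r that splits these groups uses the arrays of this comparison, so the gap between their medians is partly built in. Tested directly, a probe set minus the mean of its sisters, 143 of 10245 probe sets (1.4%) differed from the rest of their gene, in 89 genes. Of the 75 that stood above their sisters at 7wk, 62 shared the dip, a count with the same limit.

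Ywhag, an adaptor protein that binds phosphorylated partners, is an example. Its probe set 1420816_at had ratios of 0.85, 1.09 and 1.28 at 7wk, against 0.0531, 0.0548 and 0.271 at 6wk, a rise of 3.52 (SE 0.50, adjusted p = 0.0095). The 7wk arrays sat near the median of the series and all 6wk arrays far below it. Its sister 1450012_x_at had ratios of 1.004, 0.971 and 1.13 at 7wk and of 1.01, 0.876 and 0.883 at 6wk, with overlap and a difference of 0.17 (SE 0.13), and the third, 1420817_at, of 0.21 (SE 0.19). The first probe set differed from the other 2 by 3.33 (adjusted p = 0.00997). Its r with the index was 0.949 over 14 arrays and 0.909 over the 8 arrays of 3wk, 4wk and 5wk.

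The actin-bundling protein fascin, Fscn1, had 4 probe sets that formed a ladder. 1416516_at rose by 4.05 (SE 0.61), with ratios of 1.26, 0.817 and 1.18 at 7wk and 0.0528, 0.0735 and 0.0688 at 6wk, and 1416515_at by 1.73 (SE 0.28). The other probe sets, 1448378_at and 1416514_a_at, had differences of 0.42 (SE 0.21) and −0.20 (SE 0.24) that were not called. Their r with the index over 14 arrays were 0.858, 0.865, 0.7 and −0.092, in the same order, and 0.699, 0.8, 0.747 and −0.078 over the 8 arrays. 1416514_a_at, the lowest of the ladder, differed from its sisters by −2.27 (adjusted p = 0.00474).

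Kcnk3, a potassium leak channel, had the largest called difference of all, 4.18 (SE 0.41, adjusted p = 0.00147) for 1425342_a_at, with ratios of 0.957, 0.611 and 1.29 at 7wk and 0.0243, 0.0695 and 0.0753 at 6wk. This probe set was already low at 5wk (mean 0.122 ± 0.0363, n = 2), where the control index was −0.706 and −0.458. Its sisters differed by 0.87 (SE 0.34) and 0.73 (SE 0.70), not called. Bcl2l1, the anti-apoptotic protein Bcl-xL, rose by 3.79 (SE 0.50) in 1426191_a_at, with ratios of 2.16, 2.34 and 2.22 at 7wk and 0.106, 0.158 and 0.253 at 6wk. Its sister 1420888_at differed by 0.17 (SE 0.31). The third probe set, 1420887_a_at, differed by 1.15 (SE 0.55), higher at 7wk with no overlap but not called (adjusted p = 0.377). Tpcn1, a cation channel of endosomes and lysosomes, had 1 probe set up by 2.84 (SE 0.24), 1 with a difference of 3.05 (SE 0.74) that was not called (adjusted p = 0.095) and 1 at 0.13 (SE 0.15). Ttyh2 rose by 3.13 (SE 0.52) in 1 probe set, with a difference of 0.25 (SE 0.22) in the other. The 6wk levels of some of these lay close to the background of the array, so the size of the fold rests on it. Recovered in steps, the smallest unit of signal recorded, the 6wk levels were 11, 15 and 19 for Fscn1 1416516_at and 13, 19 and 41.1 for Bcl2l1 1426191_a_at, where 200 was the limit of the filter. Bcl2l1 1426191_a_at passed that filter through the 7wk arrays, at 372, 290 and 352.9 steps. Ttyh2 1421179_at also passed it through 7wk arrays, at 478, 163.1 and 344.1 steps, against 18, 27 and 58.1 at 6wk. Its call is therefore not independent of the filter.

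Scd2, a stearoyl-CoA desaturase that makes monounsaturated fatty acids, had the smallest adjusted p. 1415824_at had ratios of 1.36, 1.49 and 1.62 at 7wk, against 0.137, 0.221 and 0.234 at 6wk, a rise of 2.95 (SE 0.20, adjusted p = 0.000224). 1415823_at rose by 0.97 (SE 0.19) and 1415822_at differed by 0.46 (SE 0.13, adjusted p = 0.133), with no overlap in any of the 3. All 3 thus pointed upwards, with sizes that differed: 1415824_at stood 2.24 above its sisters (adjusted p = 0.00295). Averaged over the 3, the gene rose by 1.46 (SE 0.12), and the probe set that did not share the dip gave 0.46.

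Ccnd2, a cyclin that drives entry into the cell cycle, had 7 probe sets. 1416124_at and 1416123_at differed by 2.71 (SE 0.70) and 2.57 (SE 0.84), neither called, and 1448229_s_at rose by 1.06 (SE 0.18). The other 4 lay between −0.25 and −0.06, none called. Cadm1, an adhesion molecule of epithelial cells, had 1 probe set at 3.07 (SE 0.68, adjusted p = 0.0664) and 3 between −0.54 and −0.10. That probe set stood 3.44 above its sisters (adjusted p = 0.0438) but did not follow the index over the 8 arrays (r = −0.381). It passed the filter on low levels through 7wk arrays, at 197, 205 and 233 steps, where it was high. Tmsb10, an actin-binding thymosin, had 1455946_x_at at 2.91 (SE 0.61, adjusted p = 0.0543), with 3 sisters between −0.32 and 0.02. For Ccnd2, Cadm1 and Tmsb10 a single probe set would thus give either a large difference or one near 0.

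**Figure D3:**
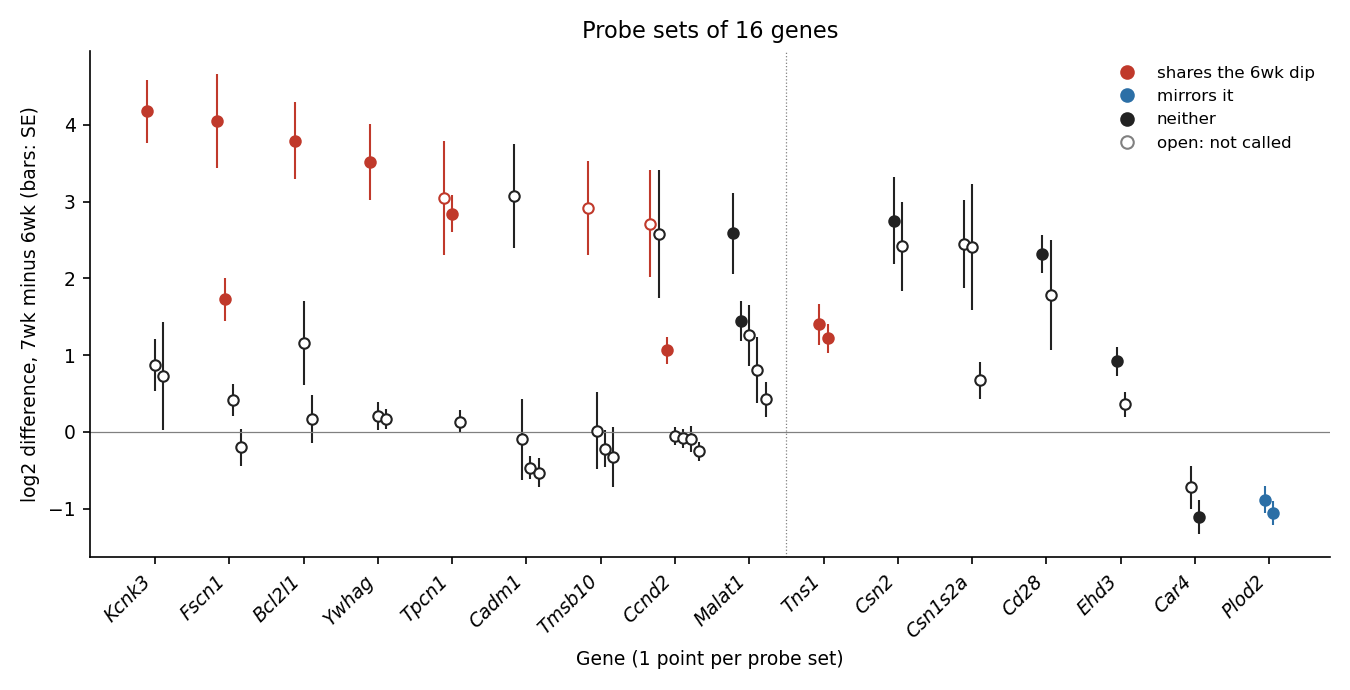
Log2 difference, 7wk minus 6wk, with SE, of every probe set tested for 16 genes; filled points were called, and colour gives whether the probe set shares the 6wk dip, mirrors it or does neither. Left of the dotted line the probe sets of a gene differ widely in size, and in Fscn1 (4.05 to −0.20), Cadm1, Tmsb10 and Ccnd2 they lie on both sides of 0. In Kcnk3, Bcl2l1, Ywhag, Tpcn1 and Malat1, also on the left, all are above 0. Right of the line all probe sets of a gene lie on the same side of 0, as in Csn2 (2.75 and 2.42).

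Genes were next split by whether their probe sets agreed. Of the 151 genes with at least 1 called probe set, 2 had every probe set called the same way, 60 had some called and the rest on the same side of 0, 57 had probe sets on opposite sides of 0, and 32 had a single probe set. Tns1 and Plod2 were the pair in which all were called. Tns1, tensin of focal adhesions, had 1449405_at at 1, 0.962 and 1 on the 7wk arrays and 0.319, 0.386 and 0.425 on the 6wk arrays. It rose by 1.40 (SE 0.26), and 1419283_s_at by 1.22 (SE 0.19). Both shared the dip, with r of 0.840 and 0.809 over 14 arrays and 0.712 and 0.678 over the 8 arrays, so agreement between probe sets did not separate this gene from the control signals.

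Plod2, the lysyl hydroxylase that prepares collagen for cross-linking, was the only gene with several probe sets called lower in all of them. 1416687_at had ratios of 0.641, 0.859 and 0.668 at 7wk, against 1.61, 1.32 and 1.55 at 6wk, a fall of −1.05 (SE 0.16, adjusted p = 0.0126), a call lost without 7wk A, 7wk C or 6wk A. 1416686_at fell by 0.89 (SE 0.18, adjusted p = 0.0441), and the pair differed from each other by 0.17 (SE 0.17). Both mirrored the index, with r of −0.847 and −0.816 over 14 arrays and −0.823 and −0.778 over the 8. No gene with several probe sets was called in all of them while keeping clear of the control index.

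Among the 60 partly called genes, 12 had no probe set that shared or mirrored the dip: Csn2, Cd28, Car4, Ehd3, Malat1, Igfbp5, Atrx, Atp8a1, Lss, Sfxn1, Snrnp27 and Zfp444. In 4 of them, Csn2, Cd28, Car4 and Ehd3, every probe set showed no overlap. They belong to 74 genes of 4019 (1.84%), 28 higher and 46 lower, in which each of several probe sets separated the ages the same way and none shared or mirrored the dip over 14 arrays. This class was added after the values were seen.

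Csn2, beta-casein, the most abundant protein of mouse milk, led it. 1420369_a_at had ratios of 16.1, 14.6 and 11.8 in the 7wk pools A to C, against 0.714, 2.16 and 5.84 in the 6wk pools A to C. 1420370_s_at had 13.2, 11.4 and 11.8 at 7wk and 0.773, 2.38 and 6.37 at 6wk. The 7wk pools were alike and the 6wk pools spread over a wide range, with C the highest in both probe sets. The first rose by 2.75 (SE 0.57, adjusted p = 0.0489) and the second differed by 2.42 (SE 0.57, adjusted p = 0.0871), and they did not differ from each other (0.34, SE 0.35). The call of the first was lost when any single array was left out except 6wk C, at differences between 1.98 and 2.88. At 5wk the first probe set averaged 1.38 ± 0.127 (n = 2), and at 4wk and 3wk 0.124 ± 0.0223 and 0.114 ± 0.0372. Csn1s2a, an alpha-S2-type casein, had 1436170_a_at at 16.9, 16.4 and 7.12 at 7wk and 1.09, 4.25 and 2.65 at 6wk, a difference of 2.44 (SE 0.57, adjusted p = 0.0828). Its 2 other probe sets were at 2.41 (SE 0.82) and 0.67 (SE 0.24), none called, all without overlap. Over 14 arrays their r with the control index lay between −0.192 and 0.012 for the 4 probe sets with the large differences. Over the 8 arrays of 3wk, 4wk and 5wk it was −0.803 and −0.766 for Csn2 and −0.821 and −0.625 for Csn1s2a, so there both ran opposite to the index.

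Casein genes are textbook targets of prolactin through the transcription factor STAT5, whose binding motif is TTCNNNGAA. The 250 bases before the start of Csn2 are shown because its pair of probe sets gave the largest agreeing difference, with capitals marking the 1 match, which starts 93 bases before the start site (RefSeq, GRCm38.p6, chr5:87699426-87699675, minus strand).
Csn2: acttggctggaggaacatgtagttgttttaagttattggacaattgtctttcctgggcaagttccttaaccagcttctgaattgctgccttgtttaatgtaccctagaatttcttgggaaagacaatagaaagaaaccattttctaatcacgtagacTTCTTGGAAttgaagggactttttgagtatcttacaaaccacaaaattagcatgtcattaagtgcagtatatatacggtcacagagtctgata
The motif reads the same on both strands. It occurred in 7.02% of 32851 windows of this length before annotated gene starts, and in 0 matches before Csn1s2a. A match describes the letters only.

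Cd28, a costimulatory receptor of T cells, was the one probe set still called when probe sets near the control index were set aside. 1437025_at had ratios of 5.59, 4.33 and 6.48 at 7wk, against 1.05, 1.30 and 0.914 at 6wk, a rise of 2.32 (SE 0.25, adjusted p = 0.00286). It kept its call under every alternative tried except the control index as a covariate, where the difference was 3.35. 1417597_at had 1.43, 1.56 and 2.39 at 7wk and 0.658, 0.211 and 0.943 at 6wk (1.78, SE 0.72, adjusted p = 0.3). Averaged over both, the gene rose by 2.05 (SE 0.33, adjusted p = 0.0424), a call lost without any one of 7wk A, B and C, 6wk A and 6wk B. The first probe set was weak at 6wk, with recovered levels of 47, 57 and 54 steps.

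Car4, a carbonic anhydrase on the surface of capillary and other cells, was lower at 7wk. 1418094_s_at had ratios of 0.542, 0.45 and 0.525 at 7wk and 1.01, 0.98 and 1.3 at 6wk, a fall of −1.11 (SE 0.22, adjusted p = 0.0445), and 1448949_at differed by −0.73 (SE 0.28). Ehd3, which works in endosome recycling, had 1417236_at at 1.84, 1.58 and 1.7 at 7wk, against 0.798, 0.945 and 0.963 at 6wk, a rise of 0.92 (SE 0.19, adjusted p = 0.0489), with a sister at 0.36 (SE 0.16). Malat1, an abundant nuclear long noncoding RNA, had 5 probe sets, all higher at 7wk on average, between 0.42 and 2.59. 1438403_s_at rose by 2.59 (SE 0.53) and 1418188_a_at by 1.45 (SE 0.26), both below 0.3 on every 6wk array, and their r with the index, 0.621 and 0.685, lay just under the limit. Of 4 probe sets of the epithelial transcription factor Grhl2, 1452643_at rose by 1.64 (SE 0.24), with r over the 8 arrays of −0.801, while its sisters lay at −0.01, 0.02 and 0.40, none called. 1452643_at passed the filter through 7wk arrays, at 280, 127 and 220 steps, against 54, 47 and 72 at 6wk. The transcription factor Zeb2 (1.01, SE 0.19) and Pi16, a marker of a fibroblast subset (1.01, SE 0.21), rose in their single probe sets, with r over 14 arrays of 0.686 and 0.228. Igfbp5, a binding protein of insulin-like growth factors, rose by 1.44 (SE 0.27) in 1422313_a_at, but its sister differed by 0.07 (SE 0.19). That disagreement was itself past the test (1.37, adjusted p = 0.0383).

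Csn1s2a belongs to the 74 as well (mean of 3 probe sets 1.84). Among it and the other genes of the 74, none had a called probe set. Beside Csn1s2a, the largest mean differences were those of the T cell receptor segment Trav9d-3 (mean of 3 probe sets 2.14), the chloride channel regulator Clca3a1 (1.22), Ciita, the master regulator of MHC class II genes (1.18), the desaturase Fads2 (1.10) and Tmem158 (1.05). On the lower side stood Fem1a (−1.13), Hmmr, a mitotic spindle protein (−0.95, 4 probe sets), and the sialyltransferase St6galnac5 (−0.91). Several of these means join unequal probe sets: 0.487 and 1.949 for Clca3a1, 0.508 and 1.845 for Ciita, 0.572 and 1.53 for Tmem158, and −0.161 and −2.091 for Fem1a. For Clca3a1 and Ciita the probe set with the larger difference passed the filter on low levels through 7wk arrays, where it was high. That of Fem1a passed through 6wk arrays, where it was high. Hmmr had 1 probe set at −2.055, with 7wk ratios of 0.155, 0.14 and 1.039, and the others between −0.609 and −0.532.

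**Figure D4:**
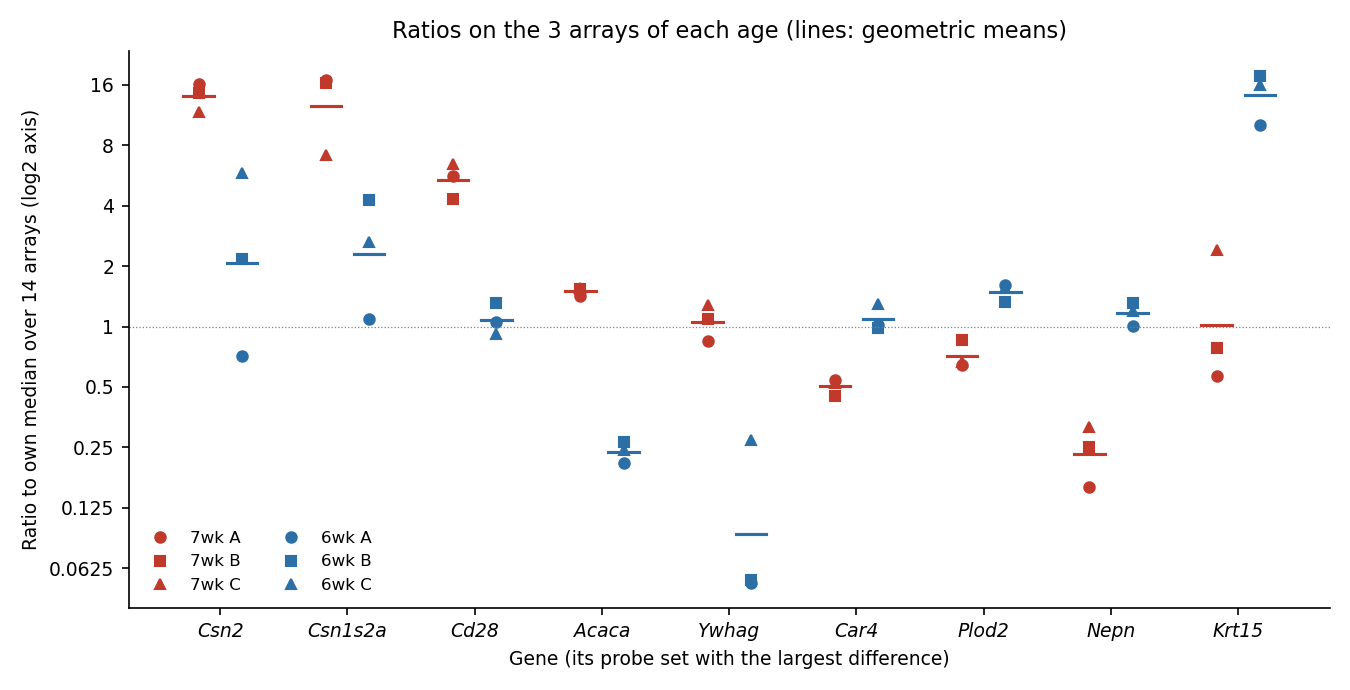
Ratio to the median of the series (log2 axis) of 1 probe set for each of 9 genes on every array, 7wk in red left of 6wk in blue, lines at the geometric mean. Csn2 spans 0.714 to 5.84 over the 6wk pools and 11.8 to 16.1 over the 7wk pools; Cd28, Car4, Plod2 and Nepn separate the ages with little spread.

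Of the 32 called genes with a single probe set there are no sisters to compare, and 10 neither shared nor mirrored the dip. The rises with the largest measured differences were those of Igfbp1, Acaca, Trim43a, Cdk6, St8sia3 and Bmf. The 6wk levels were 10 to 31 steps for Igfbp1, 20.1 to 53 for Cdk6, 22.1 to 80 for Trim43a and 37.9 to 89 for Bmf, all below the filter limit of 200, so the sizes and the order of these rest on values below that limit. Igfbp1, at 218.9, 106 and 179 steps at 7wk, and Bmf, at 417, 185 and 345, passed the filter through 7wk arrays, where they were high. Their calls are therefore not independent of the filter. Igfbp1, a secreted binding protein of insulin-like growth factors, had ratios of 1.80, 1.21 and 1.59 at 7wk and 0.254, 0.118 and 0.270 at 6wk (2.91, SE 0.52, r = 0.754). Acaca, acetyl-CoA carboxylase, which makes the building block of fatty acids, had 1.42, 1.53 and 1.56 at 7wk and 0.209, 0.265 and 0.243 at 6wk (2.66, SE 0.26, adjusted p = 0.00147). Its r was 0.927 over 14 arrays and 0.880 over the 8. Cdk6, a kinase of early cell cycle entry, rose by 2.32 (SE 0.42), Trim43a by 2.59 (SE 0.50), the sialyltransferase St8sia3 by 2.09 (SE 0.43) and the pro-apoptotic Bmf by 2.05 (SE 0.39). Of these 6, Trim43a, Cdk6 and St8sia3 did not share the dip over 14 arrays (r of 0.522, 0.607 and 0.621), and their r over the 8 arrays were negative.

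The called fall with the largest measured difference was that of Krt15, a keratin of basal epithelial cells. It had ratios of 0.564, 0.784 and 2.41 at 7wk, against 10.1, 17.7 and 15.9 at 6wk, a fall of −3.80 (SE 0.70, adjusted p = 0.033 over probe sets and 0.0529 over genes). It was 1.55 and 8.46 on the 5wk arrays and 0.711 ± 0.306 at 4wk, so 1 of the 5wk arrays lay below 7wk C. The recovered 7wk levels were 38, 38 and 150 steps, below the filter limit of 200, so the size of this fall rests on values below that limit. Krt15 passed the filter through the 6wk arrays, at 486.1, 831 and 1013 steps, where it was high. Its call is therefore not independent of the filter. Its r with the index was −0.791 over 14 arrays and −0.504 over the 8. Tpd52l1 fell by 1.95 (SE 0.34) and S100a14, a calcium-binding protein of epithelia, by 1.62 (SE 0.29), and both mirrored the index.

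Other falls did not reach the limit for mirroring the index over 14 arrays, among them that of Nepn, a small proteoglycan. It had ratios of 0.158, 0.251 and 0.316 at 7wk and 1.01, 1.32 and 1.2 at 6wk, a fall of −2.33 (SE 0.40, adjusted p = 0.0252), with r over the 8 arrays of 0.280. Its 7wk levels were 34, 38.9 and 63 steps, below the filter limit of 200. At 6wk its levels were 155.1, 198 and 244 steps, and it passed the filter through 6wk C, where it was high. Wfdc1, a secreted protease inhibitor, had 0.679, 0.653 and 0.570 at 7wk and 2.34, 2.98 and 1.51 at 6wk (−1.79, SE 0.31). Slc25a13, a mitochondrial aspartate and glutamate carrier, had 0.670, 1.47 and 0.944 at 7wk and 4.96, 4.13 and 5.04 at 6wk (−2.26, SE 0.36). The 7wk levels of Wfdc1, Slc25a13 and Rttn, between 49 and 136 steps, were also below the limit of the filter. Slc25a13, at 453, 370 and 611 steps at 6wk, and Rttn, at 211, 90 and 384, passed the filter through 6wk arrays, where they were high. Rttn, a centriole protein, fell by 1.80 (SE 0.36) and Cyp2j6, a cytochrome P450 enzyme, by 1.199 (SE 0.22). Over 14 arrays r with the index was −0.69 for Slc25a13, just short of the limit of −0.7. It was −0.589 for Rttn, −0.576 for Cyp2j6, −0.452 for Nepn and −0.432 for Wfdc1. Mbp, myelin basic protein, fell in 2 of its 8 probe sets, by 1.06 (SE 0.17) and 1.03 (SE 0.17), while the other 6 lay between −1.34 and 1.24, none called.

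The pathways of the gland were read through 32 gene lists, on values averaged over the probe sets of a gene. They are described beside the background of all 10672 genes, of which 737 (6.91%) were higher and 623 (5.84%) lower at an unadjusted p under 0.05, 10.1% were higher and 9.81% lower with no overlap, and the median difference was 0.00. The lists held 8 calls in all, which were 0 when probe sets that shared or mirrored the dip were left out.

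Genes of T and B lymphocytes were higher at 7wk in all 20 tested of 30 listed, with a median difference of 0.68, though none was called. At an unadjusted p under 0.05, 8 of 20 were higher and 0 lower, and 15 had no overlap; the count of 8 was 2 without 7wk B and 4 without 6wk A, and the median was 1.18 with the spikes as a covariate. Ltb, a lymphotoxin that organises lymphoid tissue, had ratios of 1.26, 5.32 and 3.81 at 7wk and 0.317, 0.153 and 0.117 at 6wk (4.04, SE 1.11, adjusted p = 0.161). Cd3e, of the T cell receptor complex, had 1.18, 3.35 and 2.55 at 7wk and 0.491, 0.332 and 0.820 at 6wk (2.08, SE 0.79, adjusted p = 0.293). Cd3d reached 15.6 on 7wk B, against 0.843 and 2.55 on 7wk A and C and 0.515, 0.245 and 0.479 on the 6wk arrays. Ms4a1, the B cell antigen CD20, differed by 1.11 (SE 0.44). The mean log2 ratio of the list was 0.062, 0.938 and 0.623 at 7wk (A to C), so A was the least raised, and −0.603, −0.677 and −0.401 on the 6wk arrays. Zap70 was the only tested member with a probe set that shared the dip, and the median without such probe sets was 0.63. The glands were taken after lymph nodes were removed, and the part of any remaining lymphoid tissue was not tested. The list of immunoglobulin genes and their transport had a median of 0.31 over 7 genes, 0 of them called, with 0 higher and 1 lower at an unadjusted p under 0.05, Sdc1 (−0.75), and its median was 0.02 with the spikes as a covariate. In it all 3 probe sets of Igha, which encodes the constant part of the IgA heavy chain, no overlap (0.60 to 0.76, none called).

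Genes of lipid synthesis were on balance higher. Among 22 genes of fatty acid and lipid synthesis 3 were called, Acaca, Scd2 and Mlxipl, the carbohydrate-responsive transcription factor (0.81, SE 0.15, adjusted p = 0.0436), and all 3 had probe sets that shared the dip. The call of Mlxipl was lost without any one of 13 of the 14 arrays, the 6 of 7wk and 6wk included. At an unadjusted p under 0.05, 8 were higher and 0 lower. The median of the list was 0.25, and 0.15 without the probe sets that shared or mirrored the dip. It was 0.11 without 6wk C and 0.40 without 7wk B, and the count of 8 was 4 without 6wk A and 12 without 6wk B. Scd1 had 1 probe set that rose by 0.90 (SE 0.16) and stood 1.06 above its sister (adjusted p = 0.0176). Of 19 cholesterol synthesis genes, 16 were higher on average, 8 at an unadjusted p under 0.05 and 1 lower, Msmo1 (−0.67, SE 0.25), with a median of 0.43 and no call. Mvk, mevalonate kinase, was at 1.41 (SE 0.33), but at 0.60 without the probe set that shared the dip. Lss, lanosterol synthase, was at 0.58 (SE 0.15), Sc5d at 0.52 (SE 0.13), Srebf2, the transcription factor of the pathway, at 0.63 (SE 0.19) and Fdps at 0.78 (SE 0.32). The mean log2 ratio of the cholesterol list was −0.021, −0.021 and 0.203 on the 7wk arrays, against −0.138, −0.356 and −0.409 on the 6wk arrays, with no overlap, and its median was 0.43 also without those probe sets; the count of 8 was 5 without 6wk C or without 7wk C.

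Cell cycle genes were lower at 7wk, the largest shift of a list downwards. Of 42 genes, 38 had negative differences, with a median of −0.59, and at an unadjusted p under 0.05, 16 were lower and 0 higher, though none was called. Mki67, the standard marker of proliferating cells, had ratios of 0.231, 0.240 and 0.865 at 7wk, against 0.98, 1.02 and 1.28 at 6wk (−1.58, SE 0.45, adjusted p = 0.174 over genes). Bub1b, a spindle checkpoint kinase, had 0.198, 0.197 and 0.890 at 7wk and 1.12, 1.17 and 1.56 at 6wk (−1.96, SE 0.67). Top2a, the topoisomerase of dividing cells, differed by −0.90 (SE 0.23) and Ccnb2, a mitotic cyclin, by −1.05 (SE 0.28). 7wk C stood apart from the other 7wk pools in nearly the whole list: its mean log2 ratio was 0.033, against −0.831 and −0.611 on 7wk A and B, and overlapped with −0.005, 0.009 and 0.440 on the 6wk arrays. The median was −0.87 without 7wk C, −0.42 without 7wk A and −0.16 with the hybridisation spikes as a covariate; the part of the spikes in this list was not tested further. Over the 41 of 42 genes with a probe set that neither shared nor mirrored the dip, as 95.4% of all probe sets tested do, the median was −0.60; the part of the control index in this shift was not tested.

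Milk genes were uneven. Of 21 tested, 15 were higher on average and 6 lower, 6 were higher and 1 lower at an unadjusted p under 0.05, and none was called as a gene. Beside Csn2 (2.58, SE 0.55) and Csn1s2a (1.84, SE 0.47), the higher ones were Muc1, the mucin of the apical membrane (2.16, SE 0.83), Chil1, a secreted chitinase-like protein (1.09, SE 0.38), Lalba, alpha-lactalbumin of lactose synthesis (1.06, SE 0.41), and Btn1a1, a protein of the milk fat globule membrane (0.92, SE 0.30). Csn1s1 differed by 0.60 (SE 0.58), Csn3 by 0.02 (SE 0.50), and Wap, the whey acidic protein, by −0.07 (SE 0.28). Wfdc18 was the lower one, at −0.65 (SE 0.26). The median of the list was 0.11, and its mean log2 ratio was 1.02, 1.05 and 0.389 at 7wk (A to C) and 0.079, 0.296 and 0.49 at 6wk (A to C), so 7wk C lay below 6wk C. The median was 0.26 without 6wk C, 0.22 without 7wk C, 0.21 without 6wk B and 0.05 without 7wk A.

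No gene of the luminal or basal marker lists was called by its gene mean. The luminal and pan-epithelial list had a median of 0.03 over 30 genes, 1 of them higher and 0 lower at an unadjusted p under 0.05. The median was between −0.06 and −0.004 when any one of 7wk A, 7wk B, 7wk C, 6wk A and 6wk B was left out. Krt8, a luminal keratin, differed by −0.34 (SE 0.34), Krt14, a basal keratin, by −0.22 (SE 0.21), and Elf5, a transcription factor of alveolar progenitors, by 0.20 (SE 0.29), with its 2 probe sets on opposite sides of 0. Of 21 basal and myoepithelial genes 0 were called and 4 were lower at an unadjusted p under 0.05, all of smooth muscle type contraction: Tagln (−0.84, SE 0.25), Cnn1 (−0.73, SE 0.29), Actg2 (−0.65, SE 0.18) and Acta2 (−0.60, SE 0.20). Their r with the index over 14 arrays lay between −0.657 and −0.436. The list's median was −0.22, and −0.10 without 7wk B, −0.12 without 6wk C, −0.43 without 6wk A and B and −0.38 with the spikes as a covariate.

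Connective tissue genes leaned downwards. Of 37 genes of fibrillar matrix and its assembly, 32 were lower on average, 8 were lower and 1 higher at an unadjusted p under 0.05, and Plod2 was the only call, with a median of −0.20. Col1a2 and Col3a1, chains of the main fibrillar collagens, differed by −0.37 (SE 0.13) and −0.32 (SE 0.12), with no overlap and r between −0.352 and −0.047. Postn, periostin, differed by −0.49 (SE 0.14), and Fbln1, fibulin, was the higher one at 0.58 (SE 0.18). The mean log2 ratio of the list was −0.191, −0.034 and −0.195 at 7wk and 0.048, −0.179 and 0.266 at 6wk, so the ages overlapped through 6wk B, and the median was −0.06 without 6wk C and −0.03 with the spikes as a covariate. Ribosomal protein genes had a median of −0.20, with 25 of 28 negative and 0 called, and 6 lower and 0 higher at an unadjusted p under 0.05. Without the probe sets that shared or mirrored the dip, 24 genes were left, with a median of −0.174 and 2 lower at that limit.

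**Figure D5:**
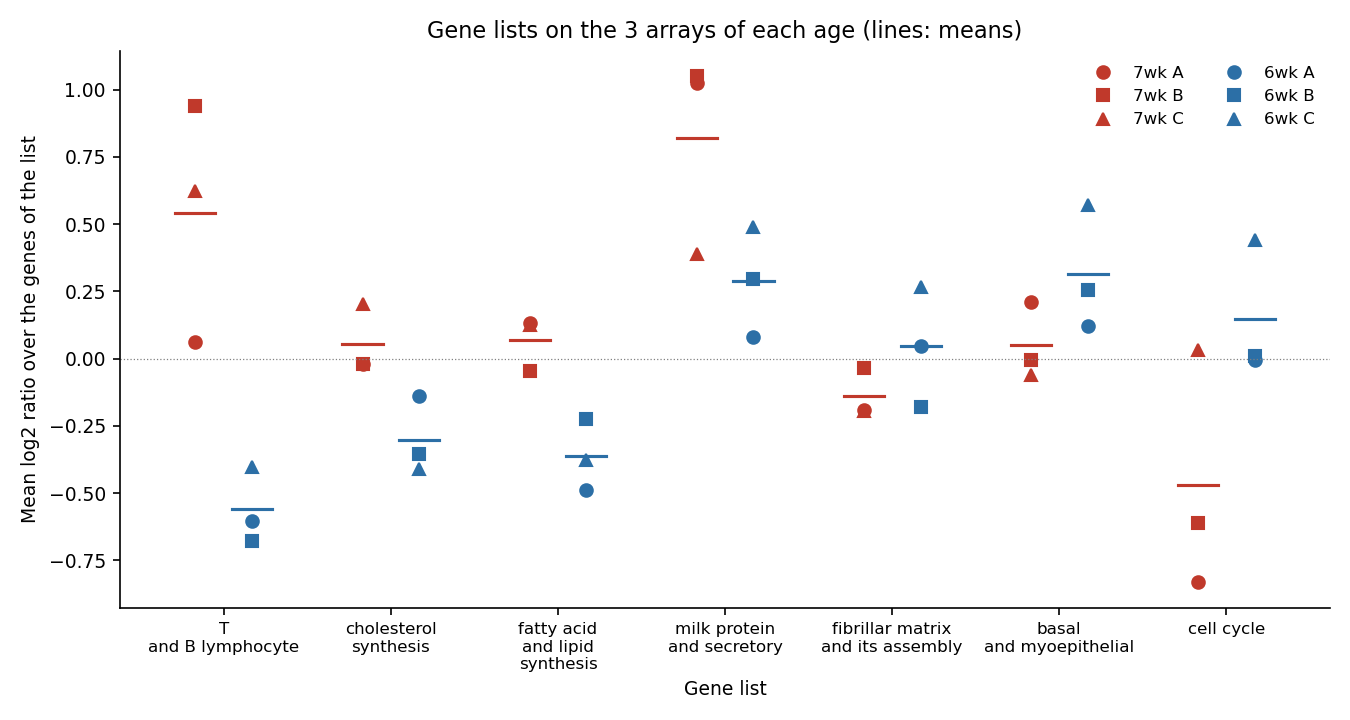
Mean log2 ratio over the tested genes of 7 lists on every array, 7wk in red left of 6wk in blue, with lines at the mean of the 3 arrays. The lymphocyte and both lipid lists separate the ages, while 7wk C (0.033) lies among the 6wk arrays for the cell cycle list.

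Of 15 genes of the gland looked up whatever their values, hormone receptors included, 14 had a tested probe set, and none of these was called by its gene mean. The oestrogen receptor Esr1 had ratios of 1.48, 1.63 and 0.297 at 7wk and 0.886, 0.953 and 1.12 at 6wk (−0.13, SE 0.68), so 7wk C was low and the SE wide. Pgr, the progesterone receptor, differed by 0.08 (SE 0.50) and Adipoq, the fat cell hormone adiponectin, by −0.19 (SE 0.11). Ucp1, the uncoupling protein of brown fat, differed by −0.61 (SE 0.57). Ppara, a receptor that drives fatty acid oxidation, had 0.528, 0.411 and 0.357 at 7wk and 0.154, 0.218 and 0.157 at 6wk (1.29, SE 0.33, adjusted p = 0.111), both far below its mean of 6.44 ± 1.38 at 4wk. Its 6wk levels were 25.9, 36 and 35 steps.

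The neighbouring week was used to ask which age stood out. Measured against the mean of 5wk and 7wk, 6wk was set apart in 131 of 18480 probe sets (0.709%), 12 higher and 119 lower. Of the 119, 88 shared the dip, beside 2.69% of all probe sets tested. Both selections use the low 6wk arrays, so that overlap is partly built in. Between 7wk and 5wk, 9 probe sets (0.0487%) were called, all higher at 7wk, with 2036 at an unadjusted p under 0.05. Cd28 1437025_at was among the 9, at 2.77 above 5wk (adjusted p = 0.011). The others that name a gene were Mbl1, a mannose-binding lectin (2.53), the kinase Pim3 (1.88), the amino acid transporter Slc7a2 (1.82), the sodium pump subunit Atp1b1 in 2 probe sets (1.27 and 1.08), Epb41l2 (1.23) and Ppp1r8 (log2 difference of 1.196). Krt15, Tpd52l1 and S100a14 differed from 5wk by −1.82, −1.96 and −1.90, none called. These comparisons share the 7wk arrays with 7wk against 6wk, and 5wk has 2 arrays, so the values stand side by side and add no separate evidence.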

How the data were processed

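The deposited values are ratios: the authors appear to have scaled every probe set to a median of 1 over the 14 arrays, as a test on the values showed (98.48% of 22690 probe sets have a median of 1 within 0.001). The signal software and its scaling were not given in the sources used here. Precision is limited by the number of arrays. Ratios were converted to log2 without an offset. Low ratios are whole multiples of an array's step, which gave back the level before division; 4146 probe sets whose second-highest level was below 200 steps and 64 control probe sets were left out, and 18480 were tested. In the platform annotation 20380 probe sets carry 1 gene name, 691 carry several and 1555 carry no name; 20351 of the 20380 were found in RefSeq (GRCm38.p6).

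All 14 arrays entered one limma 3.58.1 model (R 4.3.3) with a coefficient per age, with Benjamini-Hochberg adjustment over all features and two-sided tests, for probe sets, for genes (mean of probe sets) and for each probe set minus its sisters. The model was tested on simulated data. Plots were drawn with matplotlib 3.10.9, and tables were made in Python 3.11.15 (pandas 2.3.3, numpy 2.4.6). The lists held 973 entries, of which 788 distinct genes were tested.

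Named genes were those called in all probe sets without overlap and clear of the index (0 found), the 6 largest rises and falls among genes with 1 probe set, the 8 largest rises that shared the dip and 4 falls that mirrored it, the 8 genes with the widest spread between probe sets, leading list members, and 15 genes of the gland. Others were named after their values were seen. The members, lists and alternatives were chosen with earlier results of these data known. Alternatives were arrays left out, covariates, filters, scalings and limits for r. Same-lettered arrays did not deviate together (correlations −0.012, −0.055 and −0.019), so letters were not taken as pairs.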

Additional observations from a re-analysis of the deposited data

How the results depend on the processing

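The counts depended strongly on the arrays and on the control index. The 177 probe sets called between 7wk and 6wk became 95 with no filter on low levels, 10 with the 6 arrays alone, 18 with the spikes as a covariate, 30 without 6wk A and B, 0 with the control index as a covariate and 1 (Cd28) among probe sets with r between −0.7 and 0.7, an alternative chosen after seeing the data. The 38 genes became 23 with a replicate block, 6, 1, 2, 12, 0 and 0 under the same alternatives in that order, and 75 with array weights. The 143 probe sets that differed from their sisters became 90 with a replicate block, then 68, 2, 15, 13, 0 and 0, of which all but the first were also chosen after seeing the data. With a replicate block 137 probe sets were called. With 1 array left out the ranges were 44 to 273 probe sets, 2 to 44 genes, 27 to 189 probe sets against their sisters, 46 to 175 for 6wk set apart and 2 to 50 for 7wk against 5wk. 6wk set apart gave 85 and 7wk against 5wk 3 with no filter, and 7wk against 5wk 4 with a replicate block. Limits of 0.6 and 0.8 for r put 1017 and 202 probe sets with the dip and 953 and 86 opposite it. At an adjusted p under 0.1 or an unadjusted p under 0.05, 110 or 560 genes were partly called and 113 or 642 disagreed, and at an unadjusted p under 0.05, 80 agreed. The 8 calls among lists became 0. With the control index as a covariate 6 named differences turned sign: Ywhag 1420816_at −0.84 and its gene mean −0.15, Csn2 1420369_a_at −1.73, Sfxn1 1417559_at 0.045, and the gene means of Clec3b −0.10 and Ppp2r5b −0.31. Without the probe sets that shared or mirrored the dip, 2610507B11Rik (−0.024), Clasp1 (−0.001) and Rbbp4 (−0.015) did. The cause was not tested. A filter at a higher level was not run, since levels there could not be recovered.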

Other observations

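The other lists had few members past an unadjusted p under 0.05. Basement membrane genes had a median of −0.19, with 5 of 21 lower and 1 higher, and endoplasmic reticulum and secretory pathway genes of −0.07, with 5 of 38 lower. Interferon genes had a median of −0.21 (1 of 29 lower), nerve sheath genes of −0.22 (4 of 13 lower) and skin keratinocyte genes, which include Krt15, of −0.07 (3 of 13 lower). Adipocyte genes had 3 of 21 higher and 4 lower, with Slc2a4, the insulin-regulated glucose transporter, called (1.004, SE 0.17, adjusted p = 0.0424, a call lost without any one of 12 of the 14 arrays). Branching and duct signals had 6 of 42 higher, 3 of 41 without the probe sets that shared or mirrored the dip. Macrophage, endothelial, erythroid, circadian, immediate early, skeletal muscle, fat oxidation and oxidative phosphorylation genes had medians between −0.15 and 0.25, with none called.

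Reln, the secreted glycoprotein reelin, fell by 0.68 (SE 0.12, adjusted p = 0.0436) as a gene with 1 probe set, which mirrored the index (r = −0.817), a call lost whichever of the 14 arrays was left out. Rab5c, a GTPase of early endosomes, rose by 1.32 (SE 0.17, adjusted p = 0.0125), with 1 probe set that shared the dip (r = 0.857). Chd4, a chromatin remodelling ATPase, rose by 1.02 (SE 0.16, adjusted p = 0.0399) as a mean of 2 probe sets at 2.01 and 0.02, a call lost without any one of 10 arrays. That of Rab5c was lost without 7wk A or 7wk C.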
